A study of Sus scrofa with 4 samples.

Results

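The enzymes that break down amino acids, run the urea cycle and make glucose from amino acid carbon were followed in a map of histone H4 lysine 12 lactylation (H4K12la) in pig liver. The members were 42 genes listed by pathway, and 41 of them were found by symbol in the RefSeq annotation of Sscrofa11.1 among 16303 coding genes with a symbol; PRODH, the proline dehydrogenase gene, had no entry under that symbol and was not analysed. Livers came from sows in late gestation, which the labels sort by bile acid level into a low group, called normal in the design, and a high group. Each group had 1 immunoprecipitated library, made with an antibody against H4K12la, and 1 input library, which makes 4 samples and no replicates. The labels name liver as the tissue, hepatocytes as the cell type and female as the sex, and give neither a breed nor an age for either group. They do not say whether a library held DNA of several sows.

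H4K12la is an acyl mark on a histone tail that draws on lactate metabolism. Liver takes up lactate and amino acids from the blood, removes their nitrogen by transamination and deamination, disposes of the ammonia as urea or glutamine, and feeds the carbon into glucose. Urea synthesis and gluconeogenesis are known to be strongest in hepatocytes near the portal vein, and glutamine synthesis in those around the central vein. Peak lists from whole chromatin do not tell these cells apart.

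A peak is a stretch of the genome where the authors' caller found more immunoprecipitated fragments than the local background. Its fold is the enrichment at the summit, and its q is the adjusted p against the library's own input, so neither compares the groups. The high list held 28283 peaks and covered 11.09 Mb, and the low list held 5735 and covered 2.12 Mb. No source used here gives total read numbers, but fold and p together give the whole number of fragments at each summit, with medians of 9 (high list) and 10 (low list). Expected numbers of the low list are on its pileup as the caller scaled it, by 0.881, while its fragments are unscaled. Values this small carry wide counting errors, which are given as 95% exact Poisson intervals. The intervals cover counting error only, since amplified reads without molecular identifiers are not independent molecules. Because there is 1 library per group, no test between groups was made and every difference between the lists is a difference in calls.

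Taken as a class, these enzyme genes were not set apart from other coding genes by their counts of peaks. In the high list, 10 of 41 members had a peak within 1 kb of either gene end (24.4%; 95% Clopper-Pearson interval 12.4 to 40.3%), beside 18.4% of all coding genes and 18.9% of coding genes of like length. A peak touched the gene itself in 22 members (53.7%; 37.4 to 69.3%), beside 45.3% and 41.5%. A peak lay in the gene or within 10 kb of it in 29 members (70.7%; 54.5 to 83.9%), beside 62.8% and 60.6%. In the low list the gene-end count was 1 of 41 (2.44%; 0.0617 to 12.9%), beside 3.59% and 3.77%. The gene-body count there was 2 (4.88%; 0.596 to 16.5%), beside 15.1% and 11.4%. The 10 kb count was 7 (17.1%; 7.15 to 32.1%), beside 22.0% and 18.8%. The members' share was above both shares of coding genes in every window of the high list and below both in every window of the low list. The share of all coding genes and that of genes of like length lay inside the members' interval for all 6 of these counts. The intervals are wide and treat genes as independent draws, so they do not show that the shares are equal. The share of genes of like length is averaged over the members, each taken from its own class among 10 classes of coding genes by length.

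**Figure D1:**
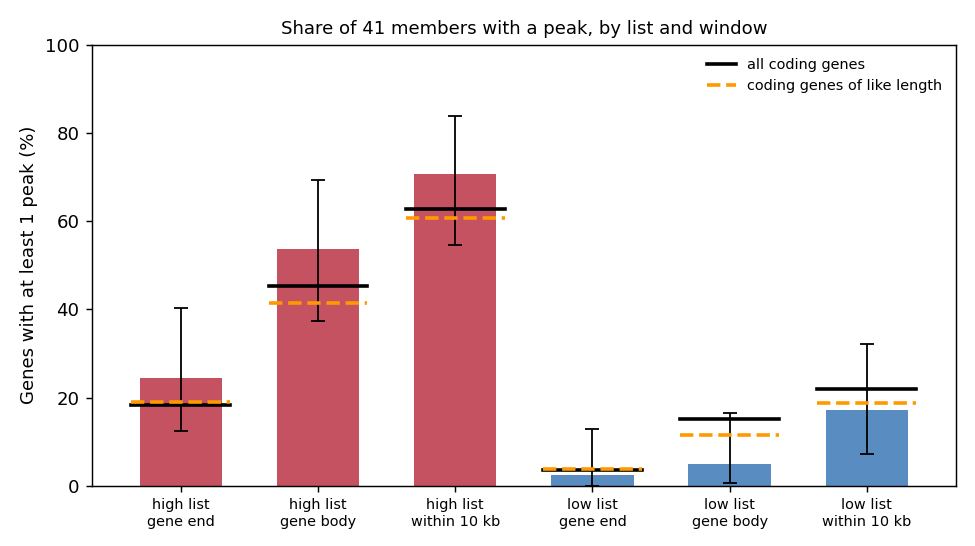
Percentage of the 41 members with at least 1 H4K12la peak, by list and window (1 kb around either gene end, gene body, gene with 10 kb flanks). Bars are members with 95% Clopper-Pearson intervals, solid lines all 16303 coding genes and dashed lines coding genes of like length; both lines fall inside every interval.

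By median fold, the members' peaks were close to the whole lists. The 57 high-list peaks within 10 kb had a median fold of 2.86 and a range of 2.09 to 4.36, against a median of 2.90 for the whole list. The 8 low-list peaks had a median fold of 3.0 and a range of 2.34 to 3.41, against 2.98. Of the 57 high-list peaks, 3 had q under 0.05, those outside BHMT, PCK1 and PCK2, which are 3 of 41 genes beside 3.60% of coding genes. All 8 low-list peaks had a q of 1, as did 97.4% of the low list. At the length of the low list, with only the 5735 high-list peaks of smallest p kept, 9 members had a high-list peak within 10 kb, beside 24.1% of coding genes, and 7 a low-list peak, beside 22.0%.

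The urea cycle, which turns ammonia into urea, had a high-list peak within 10 kb of 5 of its 7 genes, beside 62.8% of coding genes, and a low-list peak at 0 of 7, beside 22.0%. With groups of 3 to 7 genes, counts of this kind are a description and none is set apart from the shares of all coding genes. ASL, which encodes argininosuccinate lyase (chromosome 3, 16637481 to 16646869), was the member of this pathway with a gene-end peak. That peak, at 16637851 to 16638403, had 9 fragments (4.12 to 17.1) over 2.24 expected, a fold of 3.09 and a q of 0.258, and a further peak inside the gene had a fold of 3.14. The nearest low-list peak lay 15.8 kb away. CPS1, which encodes the carbamoyl phosphate synthetase that commits ammonia to the cycle (chromosome 15, 113210038 to 113339086), had 1 internal high-list peak at 113235405 to 113235699, also with 9 fragments over 2.24 expected and a fold of 3.09. Its gene spans 129049 bp, and its nearest low-list peak was 73.1 kb off. ASS1, the argininosuccinate synthase gene, had 2 internal high-list peaks, of fold 2.71 with 12 fragments and of fold 3.03 with 9.

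The peaks of the remaining urea cycle genes lay outside them. ARG2, the gene of the mitochondrial arginase, had a high-list peak of fold 2.86 with its summit 1492 bp beyond the lower-coordinate end. NAGS makes the activator of the CPS1 enzyme, and its peak of fold 3.02 had its summit 2845 bp outside NAGS and inside the neighbouring gene TMEM101. ARG1, the cytosolic arginase that releases urea, was without a peak within 10 kb, and its nearest were 49.3 kb (high) and 88.7 kb (low) away. OTC, the ornithine transcarbamylase gene, had none either, and its nearest high-list peak was 2183 kb away. OTC is on chromosome X, where 3.61% of 609 coding genes had a high-list peak within 10 kb and 0.493% a low-list peak.

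Glutamine and glutamate enzymes supply ammonia to the cycle or store it. GLS2, the liver glutaminase gene (chromosome 5, 21806405 to 21820001), carried gene-end peaks in the high and the low list alike, and they were at opposite ends. The high list had 2 peaks at the higher end, at 21819074 to 21819368 and 21820722 to 21821016, each with 9 fragments over 1.98 expected, a fold of 3.36 and a q of 0.232. Both also fell in the end window of the neighbour RBMS2. The second lay outside GLS2, with its summit 834 bp beyond the gene and inside RBMS2. The low list had 2 peaks near the lower end, and the gap between the nearest high and low peaks was 13067 bp. The closer low-list peak, at 21805677 to 21806006, had 10 fragments (4.80 to 18.4) over 2.30 expected, a fold of 2.97 and a q of 1, and it overlapped the neighbour SPRYD4. The farther had a fold of 2.89 and its summit 1490 bp outside GLS2. GLUD1, the glutamate dehydrogenase gene, had a high-list peak 541 bp inside its higher end with 8 fragments, a fold of 2.93 and a q of 0.33, in a window shared with FAM35A. GLUL, the glutamine synthetase gene and a marker of hepatocytes around the central vein, had no peak within 10 kb, and its nearest were 98.5 kb (high) and 219 kb (low) away.

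Transaminases, which move amino groups between amino acids and keto acids, had 15 high-list peaks within 10 kb together with SDS, over 5 genes. Per gene, this total was above the mean of 1.47 for coding genes. The low list had 1 peak over the same 5 genes, which per gene was below the mean of 0.281 for coding genes. Of the 15, 4 had their summit outside the member and inside a neighbouring gene. All 4 transaminase genes had high-list peaks inside the gene, beside 45.3% of coding genes with a peak touching the gene. SDS, the serine dehydratase gene, had none within 10 kb in either list. GPT2, the mitochondrial alanine transaminase gene (chromosome 6, 37625428 to 37669695), had 5 high-list peaks and no low-list peak. They formed a group of 2 in the first part of the gene by coordinate, of fold 2.50 and 3.36, and a group of 3 around its higher end, of fold 3.31, 2.86 and 2.60. The peaks of that second group had 9, 10 and 9 fragments. GPT, which encodes the other alanine transaminase (chromosome 4, 297747 to 302498), also had 5 high-list peaks. The peak at its lower end, at 298405 to 298699, had 9 fragments over 2.32 expected and a fold of 3.01, and an internal peak had a fold of 2.34. The other 3, of fold 3.38, 3.48 and 2.56, had their summits in the adjacent gene PPP1R16A. The low list had 1 peak at GPT, of fold 2.34 with 9 fragments, which lay in MFSD3 on the other side.

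The aspartate transaminases, which work in the malate-aspartate shuttle, had peaks in the high list alone. GOT2, the mitochondrial form (chromosome 6, 20407203 to 20431849), had a gene-end peak at 20407972 to 20408266 with 9 fragments over 1.98 expected, a fold of 3.36 and a q of 0.232. A second peak of fold 3.28 lay 4331 bp inside the same end. GOT1, the cytosolic form, had 2 internal peaks with 12 and 11 fragments, of fold 3.0 and 2.59, and an outer peak of fold 2.98 that lay in CNNM1. Its nearest low-list peak was 717 kb away.

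Of the 7 genes of tyrosine and tryptophan catabolism, 5 had a high-list peak within 10 kb, beside 62.8% of coding genes. None had a gene-end peak, beside 18.4% (high) and 3.59% (low). FAH, whose product fumarylacetoacetase ends tyrosine breakdown, had 2 internal high-list peaks near its higher end. The stronger, at chromosome 7, 49085449 to 49085792, had 10 fragments over 2.69 expected and a fold of 2.98, and the weaker had a fold of 2.56. KMO, which encodes the kynurenine hydroxylase of tryptophan breakdown, had an internal peak of fold 2.84 and an outer peak of fold 2.86. The summit of the outer peak was 8787 bp beyond the gene, inside LOC100627222. HGD, the homogentisate oxidase gene, and HPD, which makes homogentisate, had 1 internal high-list peak each, with 7 fragments and folds of 2.68 and 2.41. TDO2, the liver tryptophan dioxygenase gene, had a peak of fold 2.51 with its summit 8848 bp beyond the gene, inside CTSO. IDO1, which carries out the same reaction outside the liver, had no high-list peak and 1 low-list peak of fold 3.04, with 9 fragments and its summit 9972 bp beyond the gene. TAT, a glucocorticoid-induced gene whose product starts tyrosine breakdown, had no peak in either list within 10 kb, and its nearest were 90.4 kb (high) and 249 kb (low) away.

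Of the 7 methionine and transsulfuration genes, BHMT, GNMT and AHCY each had a high-list gene-end peak, beside 18.4% of coding genes. No peak of either list lay within 10 kb of CBS, CTH, MAT1A and MAT2A, beside 31.8% of coding genes with none. None of the 7 had a low-list peak within 10 kb, beside 22.0% with one. GNMT, the glycine methyltransferase that uses up excess S-adenosylmethionine (chromosome 7, 38038359 to 38041218), is the shortest member at 2860 bp. Its peak, at 38038085 to 38038499, had its summit 17 bp from the lower gene end, with 10 fragments (4.80 to 18.4) over 2.35 expected, a fold of 3.28 and a q of 0.211. GNMT was also the 1 member of 41 with a gene-end peak among the 5735 high-list peaks of smallest p, beside 5.18% of coding genes. AHCY, which encodes the hydrolase of S-adenosylhomocysteine, had a peak of fold 3.31 with 9 fragments and its summit 156 bp inside the higher end.

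BHMT, the betaine-homocysteine methyltransferase gene (chromosome 2, 87911093 to 87935252), had the weakest and a joint strongest peak among the members. Its gene-end peak had 11 fragments over 4.75 expected, the highest expected number among member peaks, a fold of 2.09 and a q of 0.626. The strong peak, at 87940479 to 87940858, lay outside the gene with its summit 5473 bp beyond the higher end. It had 12 fragments (6.20 to 21.0) over 1.98 expected, a fold of 4.36 and a q of 0.031. The nearest other annotated gene, LOC110259770, was 3955 bp from that summit, and the nearest low-list peak was 132 kb from BHMT. Of the genes without a peak, CBS and CTH encode the transsulfuration enzymes, and their nearest high-list peaks were 11.7 and 29.9 kb away. MAT1A, which encodes the liver form of S-adenosylmethionine synthetase, was 14.6 kb from the nearest high-list peak and 167 kb from the nearest low-list peak. MAT2A, the form of other tissues, was 26.4 kb from the nearest high-list peak.

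Every one of the 6 branched-chain and histidine genes found in the annotation had a peak within 10 kb in at least 1 list. Among all coding genes, 31.8% had none in either list, so 6 genes with a peak do not set this group apart. In the high list 5 of them had one, beside 62.8% of coding genes, and in the low list 2, beside 22.0%. UROC1, the urocanate hydratase gene of histidine breakdown (chromosome 7, 53592763 to 53634214), had 3 high-list peaks. The peak at its higher end, 837 bp wide, had 7 fragments and a fold of 2.58, and the internal peaks had folds of 3.42 and 2.50. HAL, whose product opens histidine breakdown (chromosome 5, 87522483 to 87547489), had an internal high-list peak at 87533955 to 87534255. It had 10 fragments over 1.98 expected, a fold of 3.69 and a q of 0.139, and its summit also lay inside LOC110260790. The low list had a peak of fold 3.14 with 10 fragments at HAL, with its summit 1318 bp beyond the higher end and its nearer edge 14362 bp from that high-list peak. A second high-list peak at HAL, of fold 2.78, lay inside LTA4H.

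BCAT1, the cytosolic branched-chain transaminase gene, had 3 internal high-list peaks of fold 2.60, 2.78 and 2.34, and the last, at 879 bp, was the widest member peak. BCAT2, the mitochondrial form, had 2 high-list peaks of fold 2.84 and 2.34, both in the neighbour HSD17B14. BCKDHA, which encodes the alpha subunit of the decarboxylase that acts next, had 1 of fold 2.75 with its summit in ATP5SL. BCKDHB, which encodes the beta subunit (chromosome 1, 85755819 to 86017661), is the longest member at 261843 bp and had no high-list peak closer than 125 kb. It had 1 internal low-list peak at 85894709 to 85895058, with 10 fragments (4.80 to 18.4) over 2.03 expected, a fold of 3.23 and a q of 1.

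Of the 6 gluconeogenic genes, 5 had a high-list peak within 10 kb, beside 62.8% of coding genes. None had a gene-end peak, beside 18.4% (high) and 3.59% (low). The strongest lay outside the phosphoenolpyruvate carboxykinase genes. PCK1, the hormone-controlled cytosolic form (chromosome 17, 57930507 to 57936523), had a peak at 57942879 to 57943300 with 12 fragments (6.20 to 21.0) over 1.98 expected, a fold of 4.36 and a q of 0.031. Its summit was 6527 bp beyond the gene and 12661 bp from the nearest other annotated gene, LOC110257401. A second peak of fold 2.83 had its summit 4069 bp beyond the gene on the same side, and the nearest low-list peak was 182 kb away. PCK2, the mitochondrial form, had a peak at chromosome 7, 75205879 to 75206300, with 12 fragments over 2.07 expected, a fold of 4.23 and a q of 0.0316. That summit was 8521 bp beyond PCK2 and inside NRL. A fold of 4.36 was reached or passed by few peaks of the high list, since 99.3% of them lay at or below it, and 98.8% lay at or below 4.23.

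The fructose-bisphosphatase genes FBP1 (liver form) and FBP2 (muscle form) are neighbours on chromosome 10. FBP1 (27588609 to 27622225) was the member with an internal peak in both lists. Its stronger high-list peak, at 27600280 to 27600578, had 10 fragments (4.80 to 18.4) over 1.98 expected and a fold of 3.69. The low-list peak, at 27601916 to 27602241, had 12 fragments (6.20 to 21.0) over 3.0 expected, a fold of 2.89 and a q of 1. The 2 did not overlap and were 1337 bp apart. FBP2 had an internal high-list peak of fold 3.36 and an outer peak of fold 2.68. PC, whose product pyruvate carboxylase makes oxaloacetate from pyruvate, had internal high-list peaks of fold 2.71 and 2.29 and an outer peak of fold 3.12 that lay in RCE1 and C2H11orf80. G6PC, the catalytic subunit gene of glucose-6-phosphatase (chromosome 12, 19965885 to 19975783), had no high-list peak closer than 18.1 kb. It had 1 low-list peak at 19984245 to 19984543, with 12 fragments (6.20 to 21.0) over 2.39 expected, a fold of 3.41 and a q of 1, and its summit was 8628 bp beyond the gene.

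**Figure D2:**
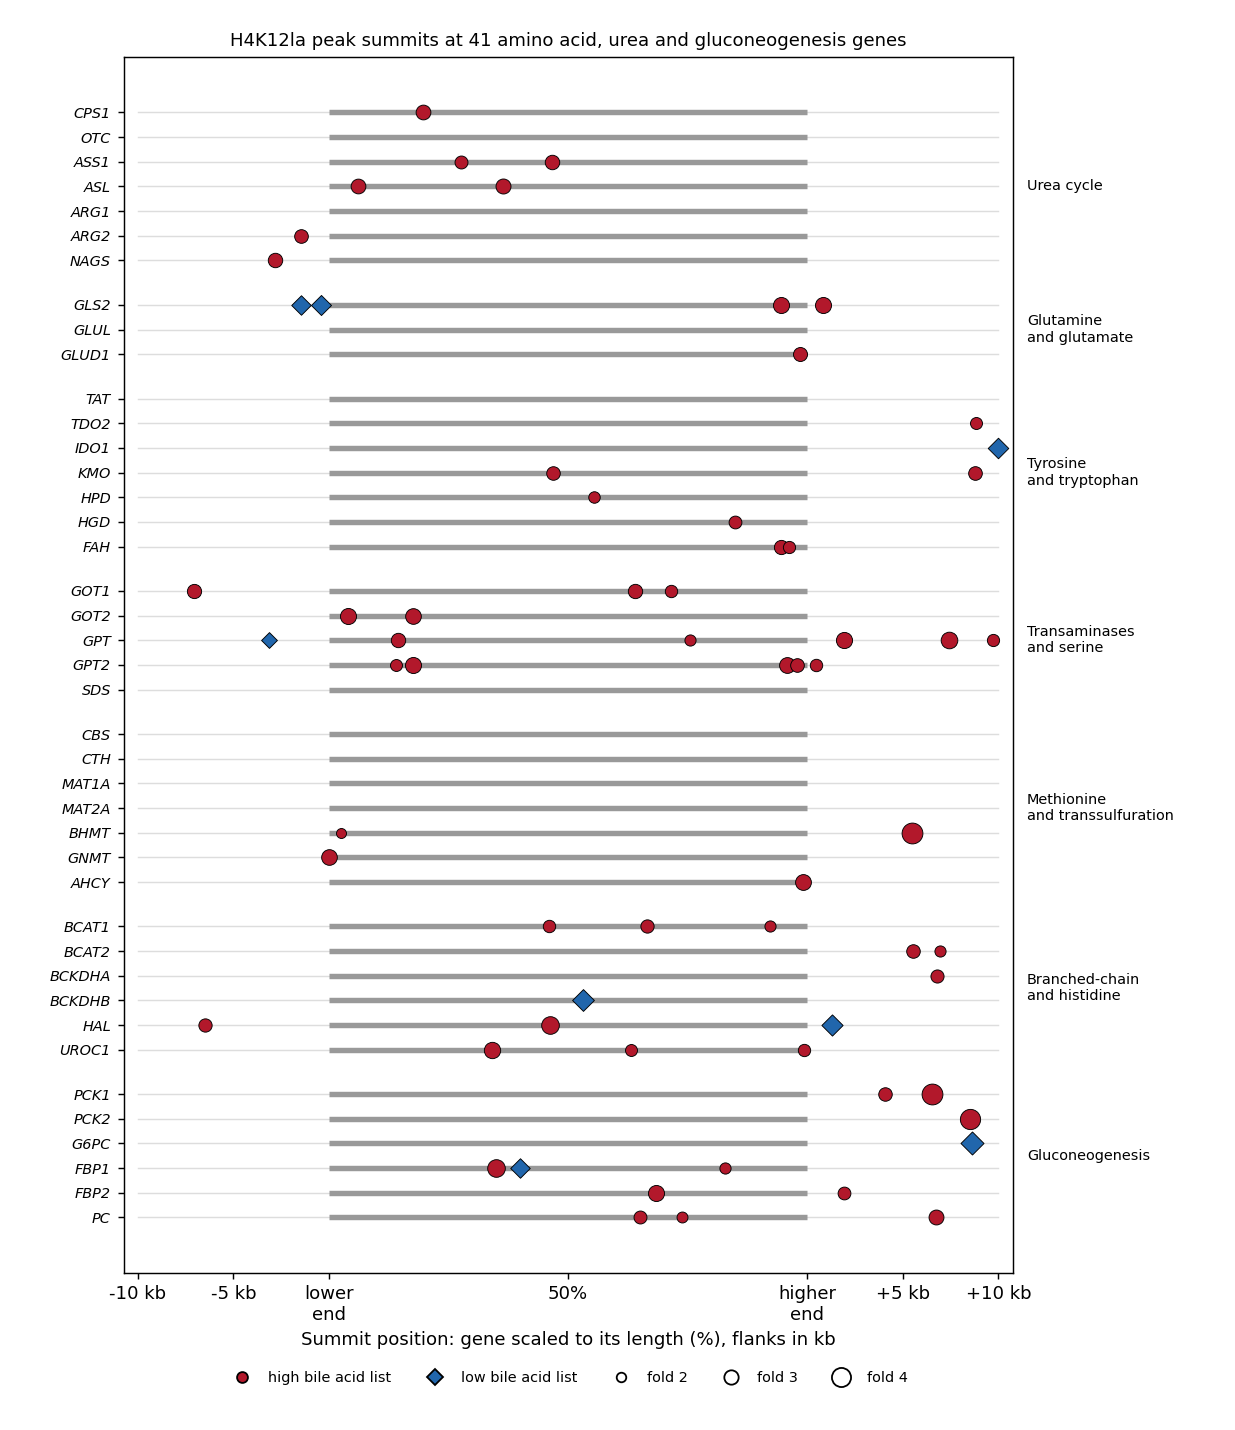
Summits of the 57 high-list (red circles) and 8 low-list (blue diamonds) peaks at the 41 members, with each gene scaled to its length from its lower to its higher coordinate and flanks of 10 kb drawn in kb; the marker area follows the square of the fold. Methionine-group summits sit within 1 kb of a gene end or outside the gene, gluconeogenic genes have none within 1 kb of an end, and 9 genes have no peak.

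Between the lists, 25 members had a peak within 10 kb in the high list only (61.0%, beside 46.2% of coding genes), 3 in the low list only (7.32%, beside 5.42%), 4 in both (9.76%, beside 16.6%) and 9 in neither (22.0%, beside 31.8%). The low-only members were BCKDHB, G6PC and IDO1, and the members with peaks in both lists were FBP1, GLS2, GPT and HAL. At none of those 4 did a high-list and a low-list peak overlap, and none came within 500 bp of each other. Over the whole lists, 0.732% of high-list peaks and 3.63% of low-list peaks overlapped.

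The lists do not show whether the level differed at a gene called in 1 list only. For each member peak, the fewest fragments that the other library would have needed for a call over the same expected number was computed. None of the 57 high-list and none of the 8 low-list peaks had an interval lying at or above that need. With counts this small no other outcome was possible. No member peak had more than 12 fragments, whose interval starts at 6.20, and at the lowest expected number of 1.98 the low library needed 7. The low-list peaks, of 9 to 12 fragments, fell short in the same way. The comparison therefore cannot tell whether the libraries differed at these places. At PCK1 and BHMT the strong high-list peaks rested on 12 fragments (6.20 to 21.0), and 7 would have sufficed in the low library. At G6PC the low-list peak rested on 12 fragments (6.20 to 21.0), and 7 would have sufficed in the high library. The fragments of the other library at these places are not in the lists.

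**Figure D3:**
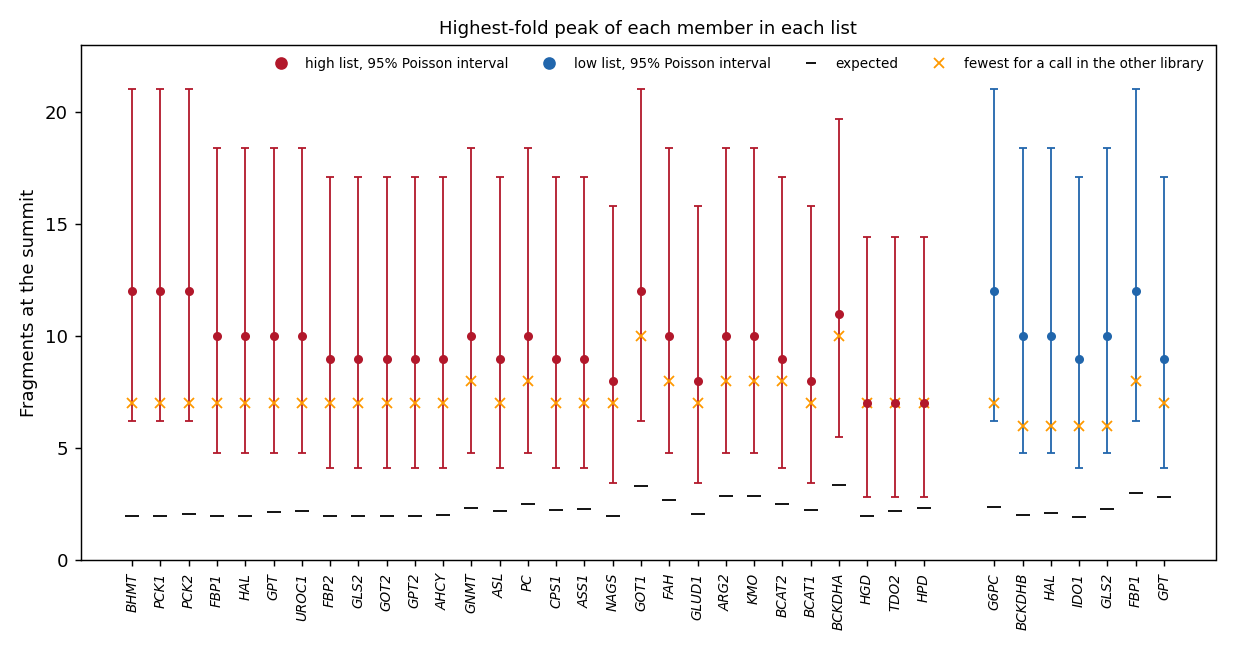
Fragments at the summit of the highest-fold peak of each member in the high (red) and low (blue) list, with 95% exact Poisson intervals, the expected number (dash) and the fewest fragments that would have given a call in the other library (cross). The expected number lies below every interval, which the choice of called peaks of highest fold favours. No interval lies wholly above its cross, which counts this small could not have reached.

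By place, 12 of the 57 high-list peaks were at a gene end of a member, 27 inside a member away from its ends and 18 outside. Of those 18, 13 had their summit inside another annotated gene, and so can be assigned to that gene as well. The second GLS2 peak, counted at a gene end, also had its summit outside GLS2 and inside RBMS2. The peaks outside ARG2, BHMT, FBP2 and PCK1 had their summits in no annotated gene. The annotation used gives neither strand nor exons, so the gene end that holds the start site was not told apart. High-list member peaks numbered 57, against 49.7 at the mean of coding genes of like length, and low-list member peaks 8, against 9.10.

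Among further genes of the same pathways, 95 of 100 listed were in the annotation, and a gene-end peak was found at 24 of them in the high list, beside 18.4% of coding genes, and at 1 in the low list, beside 3.59%. Within 10 kb the counts were 66, beside 62.8%, and 25, beside 22.0%. Glycine, serine and threonine genes had the most, with 9 of 17 at a gene end in the high list. This is the highest of several small groups, and no test was made. Of the 9, the peaks at DMGDH, GCAT and AMT also fell in the end window of a neighbour. At q under 0.05 the high-list count of 24 became 0, beside 0.816% of coding genes. GCSH, a protein of the glycine cleavage system, had a fold of 3.69, DMGDH, which acts downstream of BHMT on dimethylglycine, 3.35 and GCAT, of threonine breakdown, 3.12. Branched-chain genes had 3 of 13, BCKDK, the kinase that inhibits the branched-chain dehydrogenase, with a fold of 3.69, PCCB, a propionyl-CoA carboxylase subunit, with 3.68 and PPM1K, the opposing phosphatase, with 3.31. Phenylalanine, tyrosine and tryptophan genes had 3 of 13, led by AADAT, a kynurenine transaminase, with 3.70, before KYAT1, a further such transaminase, with 2.65 and PCBD1, which recycles the cofactor of phenylalanine hydroxylase, with 2.34. Sulfur genes had 3 of 12, among them CDO1, the cysteine dioxygenase gene, with 2.89 and SUOX, the sulfite oxidase gene, with 2.49.

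The remaining groups had few gene-end peaks in the high list, where the share of coding genes was 18.4%. Lysine, proline and histidine genes had 2 of 9, ALDH18A1, of proline synthesis, with a fold of 3.02 and ALDH4A1, of proline breakdown, with 2.06. Gluconeogenesis and its regulators had 2 of 17, SLC37A4, the glucose-6-phosphate transporter gene, with 2.78 and KLF15, a fasting-induced transcription factor gene, with 2.60. Amino acid uptake had 1 of 6, the glutamine carrier gene SLC38A3 with 2.16. Urea and arginine genes had 1 of 8, SLC25A15, which encodes the ornithine carrier that serves the urea cycle in mitochondria. SLC25A15 alone of the 95 had a gene-end peak in the low list, beside 3.59% of coding genes. At SLC25A15 the peaks of the lists overlapped by 322 bp on chromosome 11, the high-list peak at 15494716 to 15495116 and the low-list peak at 15494633 to 15495037. The high-list peak had 9 fragments (4.12 to 17.1), a fold of 2.60 and a q of 0.429, and the low-list peak had 11 (5.49 to 19.7), a fold of 3.02 and a q of 1.

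A peak list does not measure RNA, so the labelled cell type could be set only against the peaks of marker genes. Gene-end peaks in the high list were found at 2 of 10 hepatocyte markers (TTR among them), 0 of 8 Kupffer and myeloid, 2 of 6 endothelial, 0 of 5 stellate, 0 of 4 cholangiocyte and 2 of 5 lymphocyte markers. That is 6 of 38 markers in all, beside 18.4% of coding genes. ALB, which encodes albumin, was not among them. In the low list the count was 1 over the 38 markers, at AIF1 of the Kupffer and myeloid set, beside 3.59%. These counts do not tell the cell types apart. The part of other cell types in the members' peaks was not tested.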

How the data were processed

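H4K12la was profiled in 2 immunoprecipitated and 2 input libraries. Per the labels' protocols, cells were fixed in 1% formaldehyde and sonicated for 8 min, and libraries used 10 ng of DNA, 13 cycles and fragments of 250 to 450 bp. The submitters' processing notes name bcl2fastq 2.17, Trimmomatic 0.33, Bowtie 1.1.2 and MACS2 2.1.0, and both a human and a pig genome build; pig coordinates were used, because chromosomes 1 to 18, X and Y fitted Sscrofa11.1 and its RefSeq genes. Peaks were deposited per immunoprecipitated library, with no pooling. The deposited fold is a ratio to local background, and the deposited −log10 p and −log10 q are the caller's. The deposited score, a display value made from p, was left aside. No source used here states the cutoff of the caller. The largest p was 0.00989 in either list.

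Fragments at each summit were solved from fold and p as fold = (pileup + 1)/(expected + 1), within 0.002 in −log10 p, for all but 2 high-list and 1 low-list peaks. The low library's pileup had been multiplied by 0.881. The solving and the placing of peaks were tested on simulated data. Any base of a peak in a window counted. Genes of like length came from 10 length classes of coding genes, and no sequence was used. Members, lists and windows were chosen with earlier results of these data known. Named genes were all members with a gene-end peak or a peak in both lists, up to 4 others of highest fold per pathway, CPS1, PCK1, G6PC, TAT, GLUL, MAT1A and PC whatever their values, and up to 3 other pathway genes per group; remaining members were added to account for all of them. A few genes under this rule are not reported here. Alternatives changed the placing, window, thresholds, list length, neighbours and overlap. Python 3.11.15, numpy 2.4.6, scipy 1.17.1 and pandas 2.3.3 were used.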

Additional observations from a re-analysis of the deposited data

How the results depend on the processing

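No paired analysis was possible because the result comes from no test and there is 1 peak list per group. Of 37 repeats of the 7 counts of members or shared peaks, 20 stayed within 1.5 times and 17 did not, 16 of them downward; fewer peaks were left under the thresholds and the shortened list by construction. In the order gene end, gene body and 10 kb, the high-list counts of 10, 22 and 29 became 0, 0 and 3 at q under 0.05, 6, 14 and 19 at a fold of 3 or more, and 1, 5 and 9 at the length of the low list. Coding genes then stood at 0.816%, 2.16% and 3.60%, at 9.24%, 27.8% and 40.3%, and at 5.18%, 16.1% and 24.1%. The low-list counts of 1, 2 and 7 became 0, 0 and 0 at q under 0.05 and 0, 1 and 4 at a fold of 3 or more, beside 0%, 0.0307% and 0.0613%, and 1.78%, 8.17% and 11.7%, of coding genes. With a gene-end window of 3 kb the low-list gene-end count was 3, beside 6.66%. Without peaks in the end window of another coding gene it was 0, beside 2.66%, since the GLS2 peak also falls in that of MIP. With 3 kb the high-list gene-end count was 14, beside 31.3% of coding genes. Placing by the summit, a p of 0.001 or smaller and either other rule of overlap kept every count within 1.5 times. Summits rest on 6 to 12 fragments, which limits every fold.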

Other observations

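A few peaks lay near more than 1 gene of related function. The low-list peak beside HAL, of fold 3.14, had its summit 1318 bp beyond HAL and 3080 bp from AMDHD1, whose product acts after UROC1 in histidine breakdown. The low-list peak near IDO1, of fold 3.04, was 9972 bp from IDO1 and 6927 bp from its paralogue IDO2. On chromosome 2, the high-list peak of fold 3.35 at DMGDH, at 87866817 to 87867111, also fell in the end window of BHMT2, a paralogue that lies next to BHMT. These places were picked after their values were seen, and no test was made of how often neighbours of one pathway share a peak.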
